A study of Mus musculus with 18 samples.

Results

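The sodium-potassium ATPase genes described here were 3 beta subunit genes, *Atp1b1*, *Atp1b2* and *Atp1b3*, and 3 genes of the FXYD family of pump regulators, *Fxyd1*, *Fxyd6* and *Fxyd7*. They were chosen by name, with earlier results of these data known, so shares of members called are given as a description. Their 34 transcript rows among the 116873 of the deposited table were summed into 6 of 35960 gene names. The brains came from wildtype (WT) mice and *Atxn2*-CAG100-KIN mice, homozygous knockin animals in which a pure CAG repeat encodes an expanded polyglutamine stretch in ataxin-2, at 10 months of age and with no treatment. Each genotype was represented by 3 replicates, kept as littermate pairs of the same sex, male or female, on a C57BL/6 background. From each brain, 3 fractions were taken one after another with magnetic beads: microglia bound to CD11b beads, then astrocytes bound to ACSA-2 beads, then a neuronal fraction left after other cells had been removed with antibodies. This gave 18 libraries, 3 for each fraction and genotype (astrocyte WT, astrocyte KIN, microglia WT, microglia KIN, neuronal WT and neuronal KIN). The repeat is unstable and lengthens over generations, so the mice share an allele but not necessarily a repeat length.

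The sodium-potassium pump is a membrane enzyme that spends ATP to carry sodium out of the cell and potassium into it. The gradients it builds set the resting potential, reload neurons after firing, and drive the uptake of glutamate and the removal of potassium by astrocytes. A catalytic alpha subunit does the transport, a beta subunit, which crosses the membrane once, folds it and brings it to the surface, and a small FXYD protein can bind the pair and tune its affinity for ions. In brain, *Atp1b1* is known as the main beta subunit of neurons and *Atp1b2*, also called AMOG (adhesion molecule on glia), as that of astrocytes, while *Atp1b3* is expressed in many cell types. *Fxyd1* encodes phospholemman, and *Fxyd6* (phosphohippolin) and *Fxyd7* are known from neural tissue.

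The stretches of coding sequence below are shown because they carry the signatures by which the 2 families are recognised. They were read from the GRCm39 genome (the same assembly as mm39) with the GENCODE annotation. In the beta genes, the capitals mark the codons for Gly-Arg-Thr, then any 3 residues, then Trp, which lie just before the membrane segment. In the FXYD genes, the capitals mark the codons for Pro-Phe, any residue, Tyr and Asp, the motif the family is named after. Lower case gives 8 codons on either side, and every line runs 5′ to 3′ on the coding strand.
Atp1b1: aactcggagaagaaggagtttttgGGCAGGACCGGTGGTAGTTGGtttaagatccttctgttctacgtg
Atp1b2: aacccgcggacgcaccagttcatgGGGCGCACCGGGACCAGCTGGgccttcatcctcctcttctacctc
Atp1b3: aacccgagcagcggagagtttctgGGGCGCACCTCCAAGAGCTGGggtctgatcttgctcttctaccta
Fxyd1: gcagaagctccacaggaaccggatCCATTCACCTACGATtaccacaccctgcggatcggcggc
Fxyd6: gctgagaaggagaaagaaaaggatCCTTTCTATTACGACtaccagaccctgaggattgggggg
Fxyd7: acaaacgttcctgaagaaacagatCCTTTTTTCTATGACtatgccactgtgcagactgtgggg

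The beta signatures are codons 26 to 32 of 304 in *Atp1b1* (ENSMUST00000027863, chr1:164285331-164285351), 31 to 37 of 290 in *Atp1b2* (ENSMUST00000047889, chr11:69496088-69496108) and 30 to 36 of 278 in *Atp1b3* (ENSMUST00000034983, chr9:96246100-96246120), all within coding exons on the minus strand. Of their 21 bases, 16 are identical between *Atp1b2* and *Atp1b3*, 13 between *Atp1b1* and *Atp1b2*, and 11 between *Atp1b1* and *Atp1b3*. The FXYD motif is codons 28 to 32 of 92 in *Fxyd1* (ENSMUST00000108110, chr7:30752898-30753330, minus strand), 27 to 31 of 93 in *Fxyd6* (ENSMUST00000217381, chr9:45301958-45302076, plus strand) and 17 to 21 of 80 in *Fxyd7* (ENSMUST00000073892, chr7:30744451-30746810, minus strand), and in each of the 3 genes an intron splits it. Of its 15 bases, 11 are identical between *Fxyd6* and *Fxyd7*, 10 between *Fxyd1* and *Fxyd6*, and 9 between *Fxyd1* and *Fxyd7*. The whole genes lie at chr1:164264678-164285957 (*Atp1b1*), chr11:69487651-69496851 (*Atp1b2*), chr9:96214674-96246814 (*Atp1b3*), chr7:30751092-30756677 (*Fxyd1*), chr9:45281302-45307457 (*Fxyd6*) and chr7:30741936-30750961 (*Fxyd7*), so that *Fxyd7* and *Fxyd1* are neighbours. The last exon of *Atp1b1* overlaps *Nme7* on the opposite strand by 620 bases, and reads were counted without strand.

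The libraries held between 761481 and 3296398 counts, of which 75.8% to 85.4% fell in 10 rows of the table, leaving 110842 to 649157 counts for all other transcripts. Within the neuronal fraction, depth went with genotype: the WT libraries held 761481 to 1017972 counts and the KIN libraries 1473194 to 2017932. Levels are given as CPM, the count of a gene relative to the whole library after scaling by TMM (trimmed mean of M values), and a count of 3 corresponded to 0.863 to 3.99 CPM, depending on the library. A group whose libraries all held 3 counts or fewer is treated as being at this floor. The astrocyte markers summed to 437 to 642 CPM in astrocyte WT and the microglia markers to 432 to 742 CPM in microglia WT, against 5.40 to 7.17 CPM and 7.56 to 9.22 CPM in neuronal WT. The neuronal markers summed to 90.4 to 146 CPM in the 6 neuronal libraries, but also to 34.1 to 122 CPM in astrocyte WT and 17.3 to 65.0 CPM in microglia WT. In the neuronal fraction most of this sum was *Tubb3*, an early neuronal tubulin, with 48 to 170 counts, whereas the synaptic genes *Snap25*, *Syt1* and *Nrgn* had 0 to 10, 0 to 3 and 0 to 3 counts. *Gad1*, which makes GABA in inhibitory neurons, had 11 to 29 counts there, or 14.3 to 29.2 CPM in neuronal WT against 2.27 to 4.58 CPM in astrocyte WT, and *Tubb3* and *Gad1* were the 2 of 8 neuronal markers called higher in neuronal than in astrocyte WT, while 6 were called lower. Other markers were found there too. The 2 red blood cell markers summed to 124 to 222 CPM in neuronal WT and 50.6 to 155 CPM in neuronal KIN. The 4 choroid plexus markers summed to 157 to 431 CPM in neuronal WT and 286 to 472 CPM in neuronal KIN. Neuronal WT replicate 2 held 237 CPM of the oligodendrocyte markers, against 9.72 and 19.9 CPM in replicates 1 and 3. The part of these cells in the member values of the neuronal fraction was not tested.

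*Atp1b2* was highest in the astrocyte fraction, by a wide margin. In astrocyte WT it was measured at 118, 170.4 and 132 CPM, in microglia WT at 5.64, 2.47 and 5.51 CPM, and in neuronal WT at 2.16, 2.05 and 1.33 CPM, where no library held more than 2 counts. Every astrocyte library stood above every library of the other fractions, in both genotypes. In WT, the astrocyte level exceeded the microglia level by 4.88 ± 0.38 on the log2 scale (SE; edgeR quasi-likelihood test over 12305 genes, adjusted p = 8.78e-23). Against the neuronal fraction, which was at the floor of 3 counts per library, it was at least 40.8-fold higher (adjusted p = 8.42e-22). In KIN, the 3 microglia libraries held 3, 2 and 2 counts, and the astrocyte level was at least 62.2-fold above this floor (adjusted p = 2.47e-36) and at least 32.4-fold above that of the neuronal fraction (adjusted p = 4.76e-30).

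*Atp1b1* showed no such step in WT. It was found at 19.0, 6.17 and 18.2 CPM in astrocyte WT, at 8.31, 1.98 and 13.1 CPM in microglia WT and at 10.8, 11.3 and 5.32 CPM in neuronal WT, and the 3 groups overlapped. The astrocyte level was 0.81 ± 0.36 above that of microglia on the log2 scale (adjusted p = 0.0846), and no contrast between WT fractions was called. WT replicate 2 was the lowest in both glial fractions. Without the astrocyte library of replicate 2 the contrast between astrocytes and microglia was called (1.15, adjusted p = 0.0105), and so it was without the microglia library of replicate 3 (1.28, adjusted p = 0.0168). In KIN the microglia level was lower than in both other fractions, at 0.793, 1.79 and 1.04 CPM against 6.62, 5.63 and 9.18 CPM in astrocytes and 6.65, 10.5 and 7.05 CPM in the neuronal fraction, with no overlap. The difference was 2.51 ± 0.46 from astrocytes (adjusted p = 1.3e-06) and -2.60 ± 0.50 for microglia against the neuronal fraction (adjusted p = 7.47e-06).

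*Atp1b3* was found in all 3 fractions, with fewest counts in neuronal WT. WT astrocytes gave 9.52, 13.6 and 8.76 CPM, WT microglia 6.53, 9.90 and 7.21 CPM, and the WT neuronal libraries 6.48, 1.02 and 0 CPM, the last 3 resting on 6, 1 and 0 counts. The astrocyte fraction exceeded the neuronal fraction by 1.96 ± 0.57 on the log2 scale (adjusted p = 0.00669), a call that was lost without neuronal WT replicate 2 (adjusted p = 0.0864) or replicate 3 (adjusted p = 0.0687). Microglia exceeded the neuronal fraction by 1.53 ± 0.60 (adjusted p = 0.0627), and this contrast was called without neuronal WT replicate 1 (3.61, adjusted p = 0.00555), and just so in 1 fit of all 18 libraries (1.53, adjusted p = 0.0483). In KIN, the levels were 10.4, 14.3 and 11.9 CPM in astrocytes, 15.5, 8.59 and 12.5 CPM in microglia and 8.64, 4.05 and 10.9 CPM in the neuronal fraction, and no contrast was called.

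*Fxyd1*, encoding phospholemman, was found in the astrocyte and neuronal fractions. Its levels were 8.46, 10.1 and 7.82 CPM in astrocyte WT, whereas the microglia WT libraries held 1, 0 and 0 counts. The astrocyte level was at least 7.22-fold above the floor of WT microglia (adjusted p = 3.89e-10) and at least 5.84-fold above that of KIN microglia (adjusted p = 9.84e-07). The neuronal libraries were uneven, with 0, 6 and 1 counts in WT and 8, 11 and 2 counts in KIN. In WT the astrocyte level was 1.69 ± 0.59 above the neuronal level on the log2 scale (adjusted p = 0.0324), and this call was lost without any 1 of the 3 astrocyte libraries or without neuronal WT replicate 1 or 3, at adjusted p between 0.0569 and 0.245, and with DESeq2 (1.72, adjusted p = 0.115). In WT the neuronal level was called higher than that of microglia (edgeR adjusted p = 0.00973). No fold is given, since its mean of 2.49 CPM lay under the 3.43 CPM that 3 counts meant in neuronal WT. In KIN the neuronal level was at least 4.69-fold above the floor of microglia (edgeR adjusted p = 0.000487). In WT the groups overlapped at 0 counts, and the contrast rested on neuronal replicate 2, without which the adjusted p was 0.566. The choroid plexus, an epithelium in which phospholemman is also known, left traces in the same libraries: its 4 markers summed to 166, 431 and 157 CPM in neuronal WT and 328, 286 and 472 CPM in neuronal KIN, against 80.2 to 98.3 CPM in astrocyte WT. Most of each sum was *Ttr*, with 146 to 442 CPM in the neuronal libraries. The same sum was 31.8 to 100.5 CPM in microglia WT and 47.6 to 110.2 CPM in microglia KIN, where *Fxyd1* was at the floor. The part of these cells in the *Fxyd1* levels was not tested.

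*Fxyd6* had its highest levels in the neuronal fraction. The neuronal WT libraries gave 18.4, 3.07 and 13.3 CPM, the astrocyte WT libraries 3.17, 0.649 and 1.88 CPM and the microglia WT libraries 0.297, 0.495 and 1.70 CPM. The neuronal libraries thus lay above all microglia libraries, while replicate 2 lay within the astrocyte range. In WT the level in astrocytes was lower than in the neuronal fraction by 2.62 ± 0.55 on the log2 scale (log2 fold change -2.62, adjusted p = 9.73e-05), and in microglia by 3.79 ± 0.65 (log2 fold change -3.79, adjusted p = 1.34e-06). In KIN, the neuronal libraries gave 10.6, 4.85 and 14.1 CPM and no astrocyte or microglia library exceeded 1.53 CPM. The contrasts were -3.23 ± 0.53 for astrocytes (adjusted p = 1.12e-07) and at least an 8.95-fold difference from the floor of microglia (adjusted p = 4.86e-09).

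*Fxyd7* was near the limit of detection. Its 19 counts in all were 3, 2 and 7 in astrocyte WT, 2, 0 and 0 in astrocyte KIN, 1, 0 and 0 in microglia WT, 2, 0 and 0 in microglia KIN, 0, 2 and 0 in neuronal WT and 0 in the 3 neuronal KIN libraries. It did not reach 5 counts in 2 libraries of any fit and was tested nowhere. In each neuronal KIN library, a count of 0 allows up to 3 counts, which is 1.92 to 2.43 CPM.

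**Figure D1:**
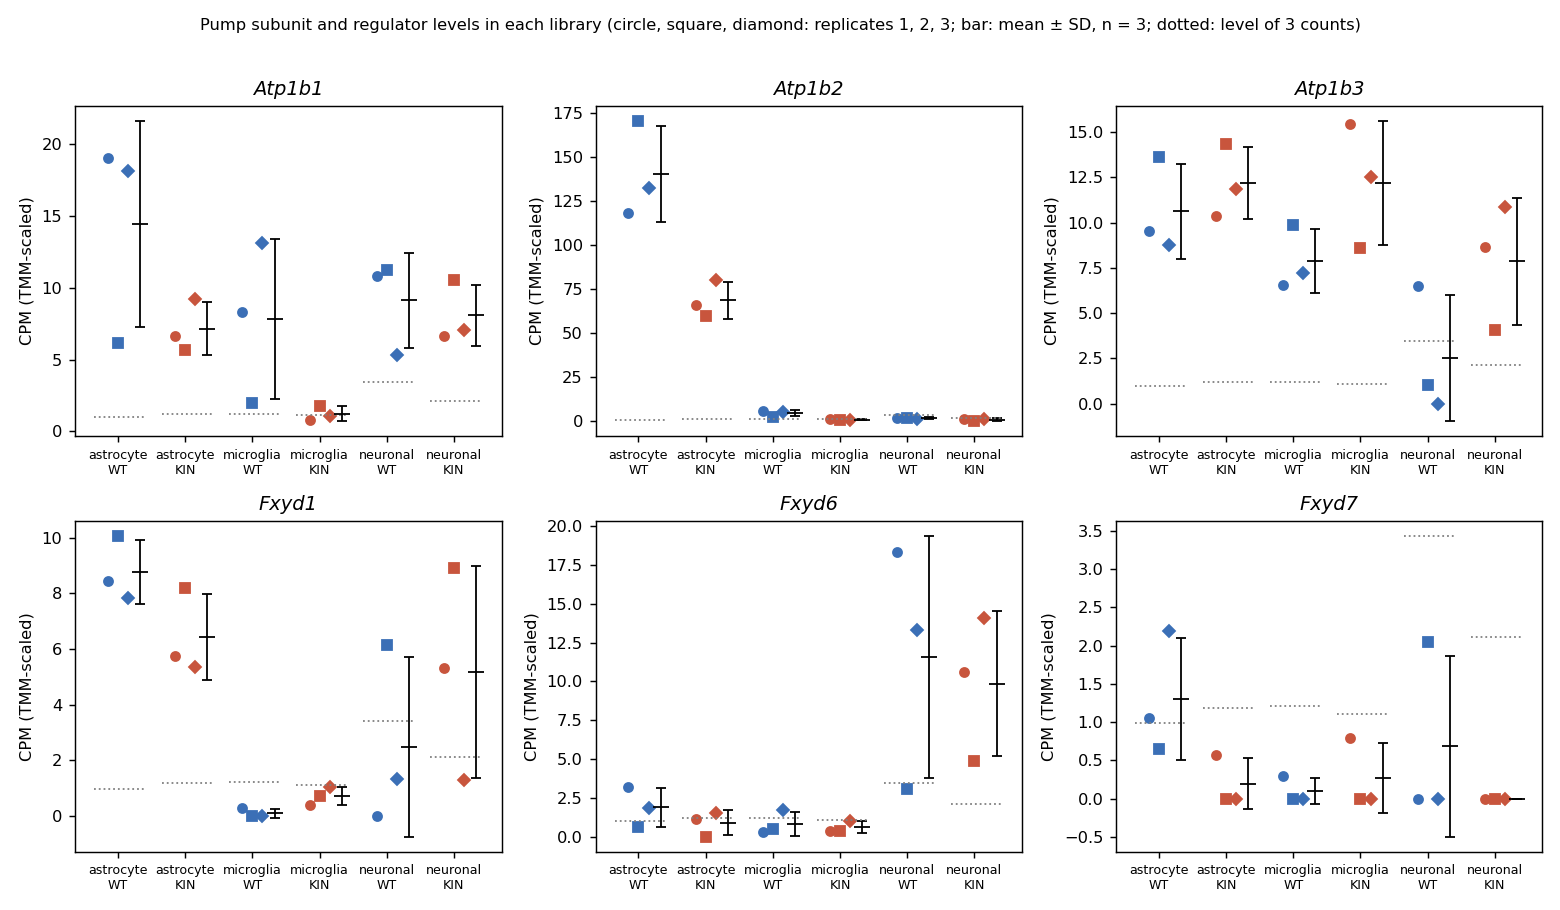
Level of each gene in CPM (TMM-scaled, y axis) in the 18 libraries, grouped by fraction and genotype on the x axis, with blue for WT and red for KIN. *Atp1b2* stands high in the astrocyte libraries, *Fxyd1* in the astrocyte libraries and in some neuronal ones (up to 8.90 CPM), *Fxyd6* in the neuronal libraries, and *Atp1b1* of WT replicate 2 (squares) lies at 6.17 CPM in astrocytes and 1.98 CPM in microglia, below the other WT replicates.

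Counted over the members, 5 of the 6 genes were tested between fractions. In WT, 2 of these 5 were called higher in astrocytes than in microglia (13.1% of all genes tested were), 3 higher in astrocytes than in the neuronal fraction (12.0%), 1 lower in astrocytes than in the neuronal fraction (6.02%) and 2 lower in microglia than in the neuronal fraction (5.19%). In KIN, 3 were called higher in astrocytes than in microglia (18.8%), 1 higher (16.9%) and 1 lower (13.2%) in astrocytes than in the neuronal fraction, and 3 lower in microglia than in the neuronal fraction (11.4%). With 5 genes, these shares are a description, and nothing more is read from them. Several calls came from members that passed the filter on low counts through the group where they were high. In WT this was *Fxyd1*, through astrocytes. In KIN it was *Atp1b2*, through astrocytes, and *Fxyd6*, through the neuronal fraction. No microglia library held more than 3 counts of *Fxyd1*. To set levels of different genes side by side, they were divided by the length of the main transcript, although libraries made from cDNA ends need not scale with length. On that scale astrocyte WT held 46.7 ± 9.01 CPM per kilobase of *Atp1b2*, against 5.60 ± 2.79 of *Atp1b1* and 5.28 ± 1.30 of *Atp1b3* (SD, n = 3), and neuronal WT held 0.615 ± 0.150, 3.54 ± 1.28 and 1.24 ± 1.73 of the same genes.

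The choice of beta subunit was next described as the composition of the beta counts in each library, that is, the share of each gene in the summed counts of the 3 beta genes. Counts were not scaled for length here, so the shares serve to compare libraries, and the size of a share within one library also depends on the transcripts, of 2580 (*Atp1b1*), 3001 (*Atp1b2*) and 2014 bases (*Atp1b3*). In astrocytes *Atp1b2* made up 80.5%, 89.6% and 83.1% of the beta counts in WT and 79.5%, 75.0% and 79.2% in KIN. In the neuronal fraction *Atp1b1* made up 55.6%, 78.6% and 80.0% in WT and 40.0%, 72.2% and 36.7% in KIN. *Atp1b3* was the larger share in neuronal KIN replicates 1 and 3, at 52.0% and 56.7%. In microglia *Atp1b3* made up 31.9%, 69.0% and 27.9% in WT and 88.6%, 77.4% and 87.8% in KIN, where each library stood above every WT library. *Atp1b1* was the largest share in microglia WT replicates 1 and 3, at 40.6% and 50.8%. The *Atp1b1* share was 8.62% ± 3.43 in the 6 astrocyte libraries, 22.2% ± 19.0 in the 6 microglia libraries and 60.5% ± 19.3 in the 6 neuronal libraries (SD, n = 6). It was lower in astrocytes than in the neuronal fraction by a difference of -51.9 percentage points (two-sided exact permutation test of 6 against 6 libraries, p = 0.00216, the smallest p this test can give; 0.013 after adjustment over 6 tests), and no libraries overlapped. Within WT the means were 9.21% and 71.4%, and within KIN 8.04% and 49.6%. The difference between microglia and the neuronal fraction was -38.3 points (exact permutation p = 0.013, adjusted 0.039). The difference between astrocytes and microglia was -13.6 points (exact permutation p = 0.115, adjusted 0.229), but -17.1 points without microglia KIN replicate 1 (unadjusted exact permutation p = 0.0346). The log2 ratio of *Atp1b1* to *Atp1b2*, which leaves *Atp1b3* out, was lower in astrocytes (difference of -3.76, unadjusted exact permutation p = 0.00216, the smallest possible). Between genotypes, the *Atp1b1* share in KIN differed from WT by -1.16 points in astrocytes (exact permutation p = 0.8), -25.7 points in microglia (p = 0.2, exact) and -21.7 points in the neuronal fraction (p = 0.2, exact), in a design of 3 against 3 libraries whose smallest p is 0.1. Microglia overlapped with both other fractions. These tests took the libraries of both genotypes, and of fractions of one brain, as independent. The composition rested on 156 to 586 beta counts per astrocyte library, 29 to 69 per microglia library and 5 to 30 per neuronal library. In the neuronal WT library with 5 beta counts, the exact binomial 95% interval of the *Atp1b1* share ran from 28.4% to 99.5%, and such intervals cover counting error only.

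**Figure D2:**
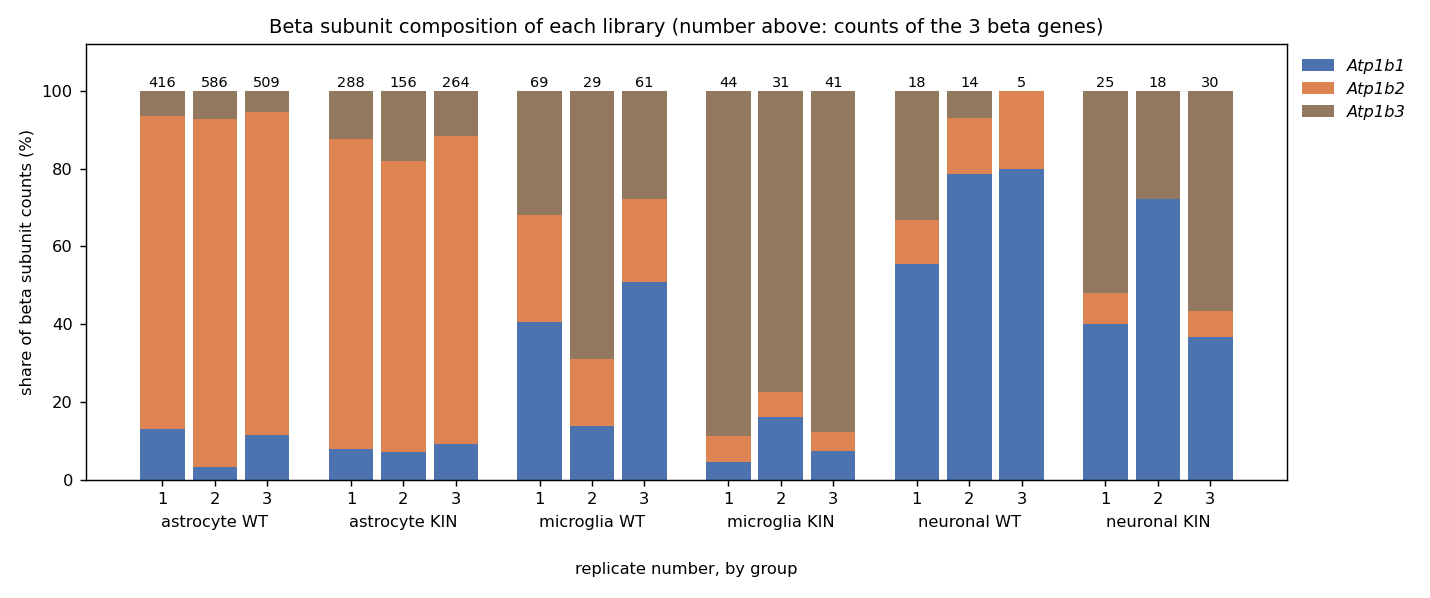
Share of *Atp1b1*, *Atp1b2* and *Atp1b3* in the summed beta subunit counts (y axis, percent) of each of the 18 libraries, ordered on the x axis by group and replicate, with the number of beta counts above each bar. *Atp1b2* takes 75.0% to 89.6% of every astrocyte library, and *Atp1b1* takes 36.7% to 80.0% of every neuronal library. In neuronal KIN replicates 1 and 3 the larger share is that of *Atp1b3* (52.0% and 56.7%).

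The genotypes were then compared within each fraction, which asks whether the expanded *Atxn2* allele goes with a change of the pump genes. In the astrocyte fraction, 2 of the 5 members tested were called lower in KIN, *Atp1b1* and *Atp1b2*, against 6.42% of the 11751 genes tested, and no member was called higher. As the members were chosen with earlier results of these data known, this share is a description. *Atp1b2* lay at 65.9, 59.9 and 80.0 CPM in KIN, below all 3 WT libraries (118, 170.4 and 132 CPM), with a log2 fold change of -1.05 ± 0.22 (SE; adjusted p = 0.000602). For *Atp1b1* the KIN libraries gave 6.62, 5.63 and 9.18 CPM and the WT libraries 19.0, 6.17 and 18.2 CPM, with a log2 fold change of -1.01 ± 0.30 (adjusted p = 0.0194). Here the groups overlapped, since WT replicate 2 lay within the KIN range. In bulk samples such as these, fewer cells of a type and less RNA per cell cannot be told apart.

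Both calls in astrocytes lay close to the thresholds. *Atp1b1* was no longer called when WT replicate 1 or 3 or KIN replicate 1 or 2 was left out (log2 fold change -0.93 to -0.79, adjusted p = 0.0801 to 0.18), nor with DESeq2 (-1.04, adjusted p = 0.142). In 1 edgeR fit of all 18 libraries, *Atp1b1* fell just short of the fold threshold (-0.996, adjusted p = 0.0444). *Atp1b2* fell short of the fold threshold without WT replicate 2 (-0.89, adjusted p = 0.000289) or KIN replicate 2 (-0.96, adjusted p = 0.0077), with the adjusted p still under its limit. *Atp1b3* (0.15 ± 0.26, adjusted p = 0.783), *Fxyd1* (-0.50 ± 0.30, adjusted p = 0.3) and *Fxyd6* (-0.91 ± 0.72, adjusted p = 0.467) were not called. Of these, *Fxyd1* was measured at 5.76, 8.19 and 5.36 CPM in KIN, and *Fxyd6* at 1.15, 0 and 1.53 CPM.

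In the microglia fraction, *Atp1b1* and *Atp1b2* were called lower in KIN, 2 of 3 members tested, while 0.785% of 10831 genes were. Both genes passed the filter on low counts through their WT libraries, so nothing is read from this share. *Atp1b1* had 2, 5 and 3 counts in the KIN libraries (0.793, 1.79 and 1.04 CPM) and 28, 4 and 31 counts in the WT libraries (8.31, 1.98 and 13.1 CPM), a log2 fold change of -2.67 ± 0.53 (adjusted p = 0.00907). *Atp1b2* had 3, 2 and 2 counts in KIN against 19, 5 and 13 in WT, at least a 4.12-fold lower level measured against the floor of KIN (adjusted p = 0.0172). The groups did not overlap for either gene, although KIN replicate 2 came close to WT replicate 2 in *Atp1b1*. *Atp1b3*, with 6.53 to 9.90 CPM in WT and 8.59 to 15.5 CPM in KIN, was not called (0.66 ± 0.29, adjusted p = 0.345). At these counts the calls were not stable. For *Atp1b1* the adjusted p was 0.0517 to 0.108 without WT replicate 3 or any 1 of the KIN libraries, and for *Atp1b2* it was 0.0693 to 0.197 without WT replicate 1 or 3 or any 1 of the KIN libraries. DESeq2 gave neither gene an adjusted p.

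In the neuronal fraction, none of the 4 members tested was called by edgeR or by DESeq2, and none had an unadjusted p under 0.05; 0.0148% of 6765 genes were called in either direction. *Atp1b1* differed by -0.42 ± 0.45, *Atp1b3* by 1.38 ± 0.70, *Fxyd1* by 0.72 ± 0.84 and *Fxyd6* by -0.39 ± 0.48 on the log2 scale (adjusted p = 0.97 each). *Atp1b3* held 13, 5 and 17 counts in KIN against 6, 1 and 0 in WT, at the lower depth of WT. Each of these genes held at most 22 counts in a neuronal library.

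**Figure D3:**
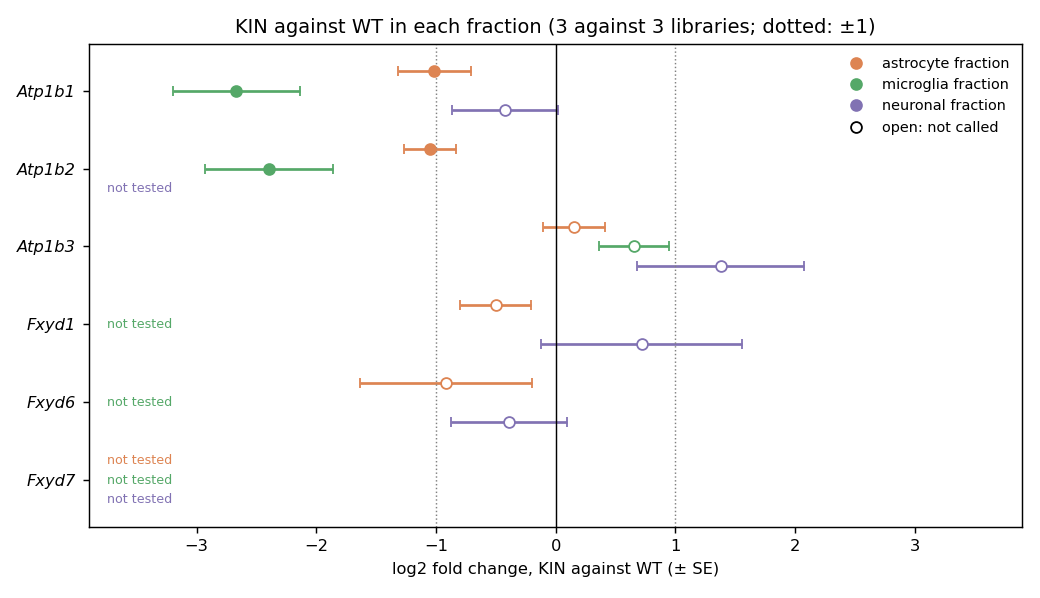
Log2 fold change of KIN against WT (x axis, with its SE as bars) for each gene (y axis) in the astrocyte, microglia and neuronal fractions, with filled points for called genes. *Atp1b1* and *Atp1b2* lie at -1.01 and -1.05 in astrocytes and further left in microglia, and the points of *Atp1b3* lie to the right of 0 without being called; the point of *Atp1b2* in microglia is a fitted value against a group at the floor.

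When the 18 libraries were fitted together with the fraction as a covariate, *Atp1b2* (-1.26 ± 0.24, adjusted p = 0.000358) and *Atp1b1* (-1.17 ± 0.27, adjusted p = 0.00444) were called lower in KIN, 2 of 5 members tested against 1.53% of 13552 genes. Libraries of the same brain entered this fit as if independent. *Atp1b3* was not called (0.55 ± 0.23, adjusted p = 0.186). The KIN effect itself was compared between fractions with an interaction term, and no member was called, against 1.17% of genes for astrocytes and microglia, 1.17% for astrocytes and the neuronal fraction and 0.0778% for microglia and the neuronal fraction. DESeq2 called no member either. At an unadjusted p under 0.05, edgeR gave *Atp1b1*, *Atp1b2* and *Fxyd1* between astrocytes and microglia, *Atp1b3* between astrocytes and the neuronal fraction and *Atp1b1* between microglia and the neuronal fraction. The *Atp1b1* effect was weaker in astrocytes than in microglia by 1.68 ± 0.63 (adjusted p = 0.193), and without microglia WT replicate 2 this difference was called (2.06, adjusted p = 0.0408), as was that between microglia and the neuronal fraction (-2.69, adjusted p = 0.0351).

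Markers of other cell types moved with these results. The 8 neuronal markers, of which none was at 0 in a whole group, summed to 122, 34.1 and 105 CPM in astrocyte WT and 26.8, 27.1 and 38.3 CPM in astrocyte KIN, and 7 of the 8 were called lower in KIN (6.42% of all genes tested were). Of these 7, *Gad1* and *Slc17a7* passed the filter on low counts through WT. The eighth, *Tubb3*, was higher without reaching the fold threshold (0.92 ± 0.28, adjusted p = 0.0219), with 7.75, 5.52 and 10.0 CPM in WT and 10.1, 14.3 and 21.0 CPM in KIN. In microglia the 8 neuronal markers summed to 65.0, 17.3 and 59.8 CPM in WT and 9.12, 7.88 and 10.1 CPM in KIN, and 5 of the 8 were called lower (0.785% of all genes tested were). All 5 passed the filter on low counts through their WT libraries, so nothing is read from this share. WT replicate 2 had the lowest sum of its group in both fractions, as it had the lowest *Atp1b1*. Expressed as a percentage of this sum, *Atp1b1* was 15.6, 18.1 and 17.3 in astrocyte WT and 24.7, 20.8 and 24 in astrocyte KIN, so that KIN was the higher and the groups did not overlap (two-sided exact permutation test, p = 0.1, the smallest that 3 against 3 libraries allow). Without *Tubb3* in the sum, the percentages were 16.6, 21.6 and 19.1 in WT and 39.7, 44.0 and 53.3 in KIN (exact permutation p = 0.1). In microglia the percentage was 12.8, 11.4 and 22.0 in WT and 8.70, 22.7 and 10.3 in KIN, and the groups overlapped (exact permutation p = 0.6).

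For *Atp1b2* the astrocyte markers are the matching list. Their 6 genes summed to 437, 642 and 439 CPM in astrocyte WT and 262, 272 and 274 CPM in astrocyte KIN, with 2 of the 6 called lower, *Gja1* and *Fgfr3* (6.42% of all genes tested were). *Atp1b2* was 27.0%, 26.5% and 30.1% of this sum in WT and 25.2%, 22.0% and 29.1% in KIN, which overlapped (exact permutation p = 0.4). In microglia the astrocyte markers summed to 19.3, 16.8 and 22.9 CPM in WT and 13.1, 15.8 and 15.3 CPM in KIN, so that KIN lay below WT. Of the 3 markers tested there, *Aldoc* was called lower (adjusted p = 0.012, with 5.94, 0.990 and 7.21 CPM in WT against 0.396, 0.358 and 0.696 CPM in KIN) and *Slc1a3*, the largest part of the sum, was not (0.20 ± 0.26, adjusted p = 0.875). *Aldoc* passed the filter on low counts through WT. *Atp1b2* was 29.2%, 14.7% and 24.1% of the sum in microglia WT and 9.09%, 4.55% and 4.55% in microglia KIN, with no overlap (exact permutation p = 0.1). Without *Slc1a3* in the sum, it was 52.8%, 35.7% and 46.4% in WT and 37.5%, 15.4% and 25% in KIN, which overlapped (exact permutation p = 0.2). Other lists moved in the astrocyte fraction too: the 5 oligodendrocyte markers summed to 291 to 462 CPM in WT and 458 to 468 CPM in KIN, the choroid plexus markers to 80.2 to 98.3 CPM in WT and 107 to 219 CPM in KIN, and the 2 ependymal markers to 17.3 to 20.3 CPM in WT and 31.9 to 37.9 CPM in KIN. In microglia the oligodendrocyte markers summed to 19.9 to 26.4 CPM in WT and 12.7 to 14.3 CPM in KIN, with none of 3 tested called by edgeR and 2 of them lower at an unadjusted p under 0.05, and the endothelial marker *Cldn5* was called lower (-2.12 ± 0.45, adjusted p = 0.0135). The part of these cell types in the member values was not tested further, and the ratios were chosen after the values had been seen.

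**Figure D4:**
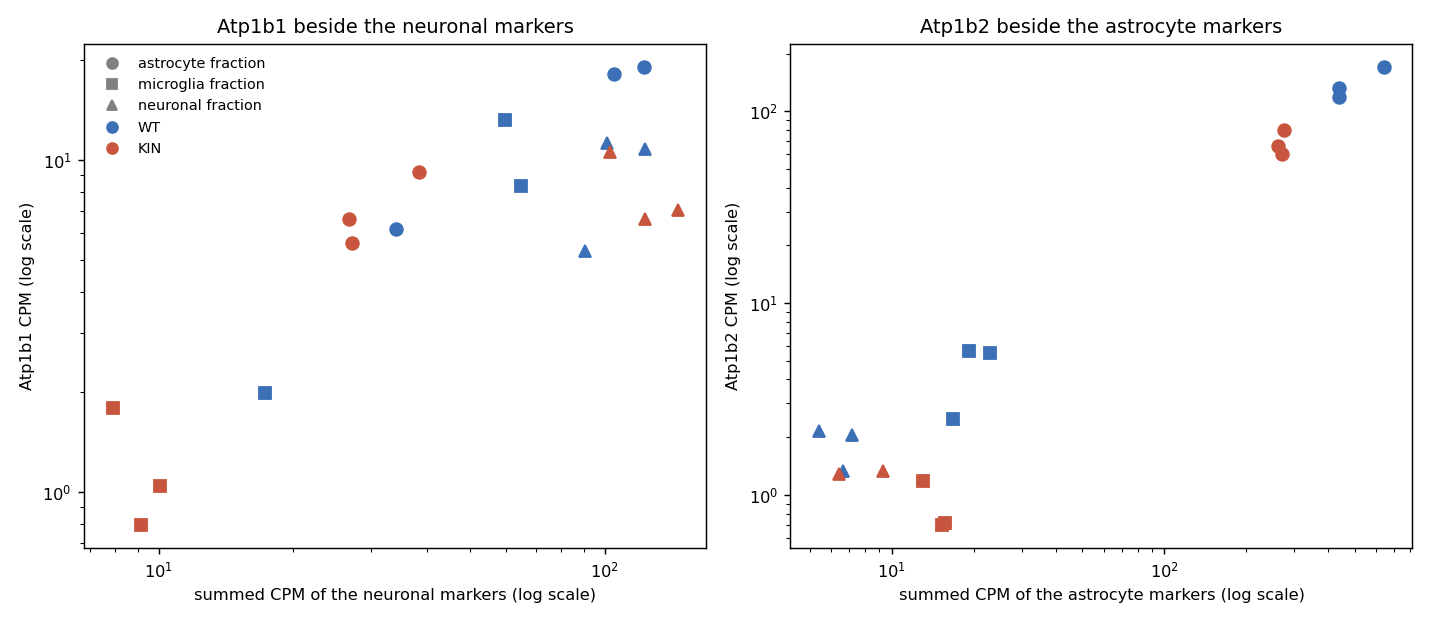
Left, *Atp1b1* against the summed neuronal markers; right, *Atp1b2* against the summed astrocyte markers; both axes are in CPM on a log scale, each point is 1 library, shapes give the fraction and colours the genotype, and the library with no *Atp1b2* count is left out. In the glial fractions *Atp1b1* is low where the neuronal markers are low, from 7.88 to 10.1 CPM of markers in microglia KIN up to 122 CPM in astrocyte WT.

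The genotype comparison was repeated for single transcripts, since the table counts them separately. In astrocytes, 8 transcripts of the members passed the filter and 6 were called lower in KIN, against 5.78% of 15548 transcripts. They were the main *Atp1b1* transcript ENSMUST00000027863 (-1.04 ± 0.33, adjusted p = 0.0267) and all 5 transcripts of *Atp1b2*, with log2 fold changes from -1.54 to -1.01. The *Atp1b2* transcripts were ENSMUST00000047889, ENSMUST00000130394, ENSMUST00000138694, ENSMUST00000144425 and ENSMUST00000153198. The number called was 3 with DESeq2, in 1 fit of all 18 libraries and without WT replicate 2, 2 without KIN replicate 1 and 1 without KIN replicate 2. In microglia, 1 of 5 was called lower, again ENSMUST00000027863 (-2.41, adjusted p = 0.018), while 0.418% of 14126 transcripts were. It passed the filter through WT, with 17, 3 and 20 counts against 2, 4 and 2 in KIN, and nothing is read from the share. No transcript was called there with DESeq2, with a mean of at least 10 counts, or without WT replicate 1 or 3 or any 1 of the KIN libraries. In the neuronal fraction none of 4 was called by edgeR or DESeq2 and none had an unadjusted p under 0.05, against 0.0181% of 5523 transcripts. These 4 were ENSMUST00000027863, the *Atp1b3* transcript ENSMUST00000034983, and ENSMUST00000217381 and ENSMUST00000085939 of *Fxyd6*. Usage of the transcripts of one gene was compared between WT fractions in *Atp1b1*, *Atp1b2* and *Fxyd6*, and no transcript of a member had an adjusted p of at most 0.05 or an unadjusted p under 0.05, against 0.792%, 0.747% and 0.36% of 11117 transcripts for astrocytes and microglia, astrocytes and the neuronal fraction, and microglia and the neuronal fraction. Counts limited these tests: *Atp1b2* held 5 counts in the 3 neuronal WT libraries together and *Fxyd6* 6 in those of microglia WT, so nothing is read from them about usage there. The main *Atp1b1* transcript held 65.1%, 65.8% and 69.5% of the gene's counts in astrocytes, microglia and the neuronal fraction, and a retained-intron transcript (ENSMUST00000192522) 25.4%, 26.0% and 20.3%. *Atp1b3* was counted almost wholly on ENSMUST00000034983, with 97.4%, 97.5% and 95.2%. For *Atp1b2*, ENSMUST00000047889 and ENSMUST00000130394, annotated without a defined coding sequence, held 780 and 787 counts, and reads on the sequence they share could be split between them. The 17 transcripts of *Fxyd1* held at most 19 counts each.

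Other genes of the pump and of the sodium gradient were taken as lists. Of 13 further genes of the pump families, 3 of 10 tested were called lower in KIN astrocytes (6.42% of all genes tested were) and 1 of 5 in KIN microglia (0.785%), and none was called higher or, in the neuronal fraction, at all. The list of 12 transporters and channels that live on the sodium and potassium gradients had 4 of 11 called lower in KIN astrocytes, against the same 6.42%, with a median log2 fold change of -0.81 beside -0.01 over all genes. These were *Slc12a5*, the neuronal potassium-chloride exporter (-2.84 ± 0.41), *Slc8a2*, a sodium-calcium exchanger (-1.60 ± 0.48), *Slc1a2*, the main astrocytic glutamate transporter (-1.34 ± 0.22), and *Slc4a4*, a sodium bicarbonate cotransporter (-1.31 ± 0.21). Of these, *Slc12a5* and *Slc8a2* passed the filter on low counts through their WT libraries, so nothing is read from the share. In microglia 3 of 10 were called lower, while 0.785% of all genes were, *Slc1a2* (-2.66 ± 0.40), *Slc12a5* (-2.60 ± 0.55) and *Slc24a2*, a sodium-calcium-potassium exchanger that lay at 1.98 to 6.83 CPM in WT and at 0 to 0.396 CPM in KIN. These 3 genes, too, passed the filter through their WT libraries, and nothing is read from the share. None of either list was called higher in a genotype comparison. The potassium channel *Kcnj10*, which takes up potassium in astrocytes, passed the adjusted p but not the fold threshold (-0.81 ± 0.24, adjusted p = 0.0183).

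The genes whose log2 CPM followed each member most closely over the 18 libraries were read off as a description; all such values share the difference between fractions and the library depths. For *Atp1b2* they included the GABA transporter gene *Slc6a11* and the glutamate transporter gene *Slc1a2* (Pearson r = 0.985 for both). For *Atp1b1* they were *Map1b*, a microtubule protein of neurites (0.918), *Nlgn2*, a postsynaptic adhesion molecule (0.900), and *Peg3* (0.894). For *Atp1b3* they were *Iffo1* (0.918), *Retreg3* (0.905) and *Ssu72* (0.903), for *Fxyd1* *Igfbp2* (0.896), *Cbx5* (0.886) and *Dmpk* (0.874), and for *Fxyd6* *Sp9*, a transcription factor of interneuron development (0.972), *Podxl2* (0.928) and *Slc9a5* (0.924). *Fxyd7* had too few counts to be included.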

How the data were processed

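The authors collapsed duplicate reads by their molecular identifiers, trimmed them (cutadapt 4.6), mapped them stepwise with Bowtie2 2.4.4 to non-coding RNA and then to Ensembl transcripts of mm39, and counted them per transcript without strand with HTSeq 2.0.2, so the deposited values are raw counts. Libraries were made from cDNA ends after polyadenylation. The table also holds 36 per-sample columns of normalised values and the authors' own fold changes and p-values; none was used. Rows were summed by name; 137 rows without a symbol, at most 0.0305% of a library, named no gene.

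Genes that reached 5 reads in 2 or more libraries of a fit were tested with edgeR 4.0.16 (R 4.3.3; TMM, quasi-likelihood test, Benjamini-Hochberg over all genes). A call needed an adjusted p no higher than 0.05 together with a log2 fold change of 1 or more in either direction. Each SE is the log2 fold change over the root of its F value. Transcript usage was tested with diffSpliceDGE; single ratios were tested with exact permutation over libraries (scipy 1.17.1). Scripts were tested on simulated data. Alternatives were DESeq2 1.42.0, its size factors, TMM without 10 rows, other filters, the adjusted p alone, a replicate block, 1 fit of all 18 libraries, protein-coding rows and each library left out. The text names all members, their transcripts that passed the filter, listed sodium gradient genes that were called, and the 3 genes with the highest Pearson r (prior count 2); other pump genes, which the rule also named where called, are given here by counts only. The members and lists were chosen with earlier results of these data known. The labels call the libraries biological replicates.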

Additional observations from a re-analysis of the deposited data

How the results depend on the processing

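With DESeq2 in place of edgeR, 1 member was called in astrocytes and 0 in microglia, and 3 and 0 transcripts; with 1 fit of all 18 libraries 1 member was called in astrocytes, and 3 transcripts there and 2 in microglia. A mean of at least 10 counts left 1 member called in microglia, 0 transcripts there, and 1 (astrocytes against microglia), 2 (against the neuronal fraction) and 0 (microglia against it) between WT fractions, and 1 in each comparison of the KIN neuronal fraction with astrocytes or microglia; it also turned *Atp1b3* between KIN astrocytes and microglia to 0.066. Protein-coding rows alone left 1 member called in microglia and 1 between WT microglia and the neuronal fraction. Relative to the neuronal markers, *Atp1b1* in astrocytes turned to 0.45, and to 1.26 with *Tubb3* left out of them. The log2 ratio of *Atp1b1* to *Atp1b2* (0.5 added to both counts) differed by -3.76 between astrocytes and microglia (exact permutation p = 0.00216), and it turned the genotype difference of the beta composition to 0.16 in astrocytes and 1.06 in the neuronal fraction, neither past the threshold.

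With 1 library left out, the members called numbered 0 to 2 in astrocytes, 0 to 2 in microglia, 1 to 2 over all fractions, 0 to 1 in the interactions of microglia with each other fraction, and 2 to 4 and 1 to 3 between the WT neuronal fraction and astrocytes or microglia; called transcripts numbered 1 to 6 and 0 to 2. The *Atp1b1* share differed between astrocytes and microglia by -17.1 to -7.85 points and between astrocyte genotypes by -4.15 to 0.72 points. Values that changed sign ran from -0.90 to 0.13 for *Fxyd6* between neuronal genotypes, from -0.73 to 0.16 for *Atp1b1* between WT microglia and the neuronal fraction, from -0.23 to 0.18 for *Atp1b3* between KIN astrocytes and microglia, and, against the KIN neuronal fraction, from -0.30 to 0.064 for *Atp1b1* and from -0.18 to 0.92 for *Fxyd1* in astrocytes. None of these was called. Beyond the fewer libraries or genes that these settings leave, the cause was not tested.

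The labels do not say that a number marks a pair, and of 45 same-numbered comparisons of deviations 1 had a correlation over 0.1 (-0.0677 to 0.209), so replicates were not treated as paired. The replicate block left 2, 2, 0 and 2 members called between genotypes in astrocytes, microglia, the neuronal fraction and over all; it raised the count between WT microglia and the neuronal fraction to 3 by adding *Atp1b3* (1.56, adjusted p = 0.0491), and changed the count over all genes in astrocytes from 1040 to 1198 and in the interaction of astrocytes and microglia from 155 to 264. Depth limits the neuronal and microglia values, where no member held more than 39 counts in a library.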
